A study of Arabidopsis thaliana with 27 samples.

Results

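Cytoplasmic translation genes are here the genes whose Gene Ontology annotation in the deposited expression table includes cytoplasmic translation, the making of protein by ribosomes of the cytosol. Of 33039 genes in the table, 53 carried the annotation, and 47 of these reached 1 TPM (a transcript level scaled to gene length and to the same total in every library) in at least 3 of 27 libraries. They were among 21396 genes that passed the same filter. The rule used annotation and level, not the differences between groups, but the members were chosen with earlier results of these data known. By role, 30 of the 47 encode proteins of the large ribosomal subunit, 6 encode proteins of the ribosomal P stalk, 2 encode the small-subunit protein RPSa, and 7 encode proteins that are not ribosomal. The remaining 2 are both copies of rpl2 in the plastid genome, ATCG00830 and ATCG01310. They encode a protein of the plastid ribosome, so their place under a cytoplasmic term goes against what they encode. Both copies had equal TPM in all 27 libraries, so they are 1 measurement listed under 2 names, and both stand in every count of 47 below. The annotated genes below the filter were RPL22A, RPL8B, the P1-type gene AT5G24510, the miRNA loci AT1G06643 and AT1G06647, and the non-coding RNA AT2G40008.

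The study measured mRNA of Arabidopsis thaliana seedlings by Illumina sequencing in 9 groups of 3 libraries. The groups are the line labelled ELF3S364P, in which serine 364 of ELF3 is changed (S364P), the line labelled ELF3 T-insert (insertion-labelled) and the wild type (WT), each at 16, 22 and 29 °C. ELF3 is a clock protein and part of the evening complex, which lowers the expression of growth genes at night and is less active in warmth. The protocol in the labels names the mutants ELF3-16 and ELF3-101, the second a T-DNA insertion, in the Columbia background that all groups share. No source used here gives the number of independent lines behind each mutant or the age of the seedlings. The protocol lists ZT 8, 16 and 24 h (hours after lights on) in parallel with 16, 22 and 29 °C. Read that way, temperature and time of day cannot be told apart in any comparison between temperatures. Nothing says that the 3 libraries of a group came from separate plantings, so p-values measure the spread between these libraries, which may be technical.

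ELF3 transcript averaged 30.7 ± 1.6 TPM in S364P, 32.3 ± 1.6 TPM in insertion-labelled and 27.1 ± 1.97 TPM in WT libraries at 16 °C (SD, n = 3 each, as below). At 22 °C it averaged 46.9 ± 0.813, 35.4 ± 3.83 and 20.4 ± 2.54 TPM in the same order of lines, and at 29 °C 69.8 ± 2.23, 39.7 ± 1.98 and 40.2 ± 1.38 TPM. The insertion-labelled libraries were thus never below WT beyond their spread, and a gene total that can hold transcript from either side of an insertion checks neither mutant label. TPM keeps no read depth, so the depth behind each value is unknown and no counting interval is given. Between 23430 and 23854 genes were above 0 in a library. Libraries of 1 group correlated at 0.973 to 0.987 across genes on the log2(TPM + 1) scale, and libraries of different groups at 0.859 to 0.983; genes are not independent replicates.

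Cytosolic ribosomes of plants are built from rRNAs and a large set of ribosomal proteins, and nearly every plant ribosomal protein is encoded by a small family of near-identical nuclear genes. The large subunit forms the peptide bond, the small subunit reads the mRNA, and the P stalk (P0 with P1 and P2 proteins) recruits the elongation factors to the large subunit. Synthesis of these proteins takes a large share of a growing cell's resources, and their genes are known for being expressed together in growing tissue. Promoters of plant ribosomal protein genes are known for a pair of short elements, the site II motif bound by TCP factors and the telo box, named for its likeness to the telomere repeat.

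The 150 bases before the gene start are shown for 4 ribosomal protein genes whose windows hold both elements: RPP1B (AT4G00810, P stalk, chr4:347294-347443), RPL26B (AT5G67510, chr5:26938499-26938648), RPL36A (AT2G37600, chr2:15775375-15775524) and RPL6A (AT1G18540, chr1:6378581-6378730), the last 3 of the large subunit. The sequences are RefSeq's for the build TAIR10.1, all from the minus strand and written 5′ to 3′ towards the gene. Capitals mark the telo box (AAACCCTA, or TAGGGTTT where it lies on the other strand) and site II (TGGGCC or TGGGCT, or GGCCCA or AGCCCA on the other strand).
RPP1B: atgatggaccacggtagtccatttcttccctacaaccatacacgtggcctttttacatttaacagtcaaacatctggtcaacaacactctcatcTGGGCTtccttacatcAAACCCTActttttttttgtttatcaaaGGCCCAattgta
RPL26B: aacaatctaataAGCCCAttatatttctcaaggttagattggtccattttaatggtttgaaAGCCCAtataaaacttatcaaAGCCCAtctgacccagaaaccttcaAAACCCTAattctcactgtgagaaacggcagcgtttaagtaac
RPL36A: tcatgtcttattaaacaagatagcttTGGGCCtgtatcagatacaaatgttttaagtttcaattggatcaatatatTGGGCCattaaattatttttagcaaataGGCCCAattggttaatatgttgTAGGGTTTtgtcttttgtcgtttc
RPL6A: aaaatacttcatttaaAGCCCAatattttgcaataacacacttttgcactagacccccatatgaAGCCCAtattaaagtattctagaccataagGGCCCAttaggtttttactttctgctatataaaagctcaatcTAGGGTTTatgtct

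In the 250 bases before the start, 31 of the 38 nuclear ribosomal protein genes (81.6%) held site II on either strand, against 22.1% of 19893 protein-coding genes tested. The telo box was in 6 of the 38 (15.8%), against 3.52%, and both elements were in 5 (13.2%), against 1.34%. Of 194 other cytosolic ribosome genes, 62.9% held site II and 19.6% the telo box. Among the 7 members that are not ribosomal proteins, 4 held site II and 0 held the telo box. The site II matches lay 6 to 239 bases before the start, with a median of 58.5, and the telo boxes 14 to 178 bases before it, with a median of 41.5. Site II matches on opposite strands can overlap each other and were each counted. Of the 45 windows of nuclear members, 27 overlapped another annotated gene, and a match describes letters only.

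Levels differed widely between members. The highest mean over the 27 libraries was that of RPL8A, a large-subunit protein near the peptide bond-forming centre, at 1069 TPM, with libraries between 881 and 1292 TPM. RPL17B (949 TPM) and RPL31C (739 TPM), whose proteins lie at the exit of the tunnel through which the new peptide leaves, were next. PGY2 (an RPL9 gene whose loss alters leaf form; 710.4 TPM), RPSaA (of a protein needed for small-subunit maturation in yeast; 694 TPM) and the P0 gene RPP0B (659.8 TPM) followed, then RPL15B (639.6 TPM), RPL29A (619 TPM), RPL24B (606 TPM) and RPL26A (592 TPM). At the low end of the nuclear ribosomal proteins stood RPP0A and RPSaB, minor copies with means of 13.5 to 24.6 TPM and 9.75 to 18.0 TPM by group. Of the 47 members, 46 reached 1 TPM in every library. The exception was DRG2, a GTP-binding protein of the DRG family, with group means of 0.30 to 2.98 TPM. RPS6A and RPS6B, the S6 kinase substrates, do not carry the annotation.

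**Figure D1:**
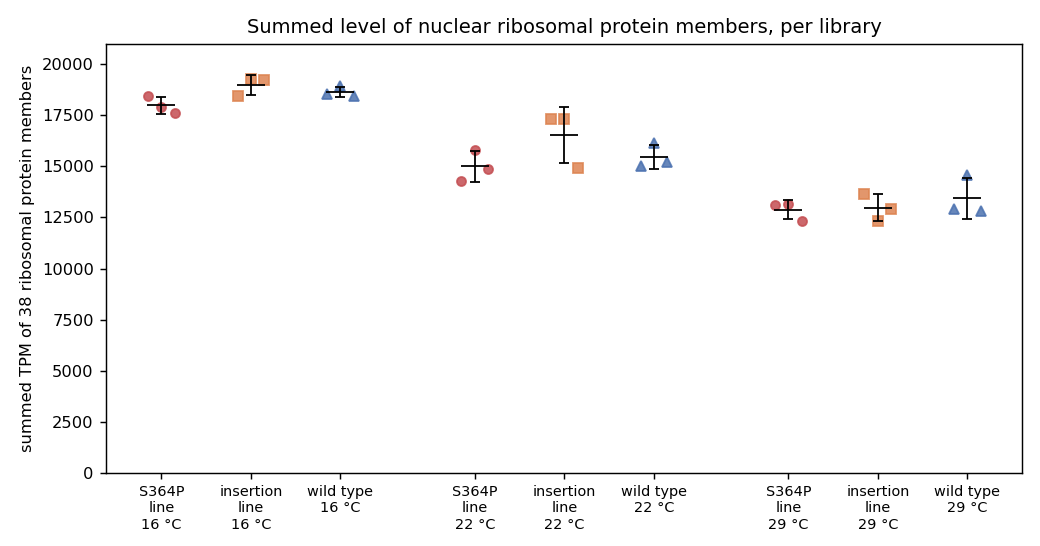
Summed TPM of the 38 nuclear ribosomal protein genes in each library (points) for the S364P, insertion-labelled and WT groups at 16, 22 and 29 °C. The sums lie between 17642 and 19286 TPM at 16 °C and between 12342 and 14596 TPM at 29 °C, and 1 insertion-labelled library at 22 °C stands at 14946 TPM, below its group's other two.

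Summed over the 38 nuclear ribosomal protein genes, the level was lower at each higher temperature in all 3 lines. The sum was 17642 to 18450 TPM in S364P, 18429 to 19286 TPM in insertion-labelled and 18455 to 18919 TPM in WT libraries at 16 °C. At 22 °C it was 14299 to 15817 TPM in S364P libraries, 17344, 17336 and 14946 TPM in insertion-labelled libraries 1 to 3, and 15037 to 16146 TPM in WT libraries. At 29 °C it was 12347 to 13157 TPM in S364P, 12342 to 13670 TPM in insertion-labelled and 12824 to 14596 TPM in WT libraries. Within a line no library overlapped between temperatures. Between lines the libraries overlapped at 22 and 29 °C, and at 16 °C the highest S364P sum lay just under the lowest WT sum. Per gene, the ratio of the group mean at 29 °C to that at 16 °C had a median of 0.71 in S364P (33 of 38 below 1), 0.69 in insertion-labelled (36 of 38) and 0.72 in WT libraries (32 of 38). In bulk seedlings, fewer cells of a type and less RNA per cell cannot be told apart.

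In WT seedlings, members were mostly lower at each warmer step. A call is an adjusted p under 0.05 in limma's two-sided moderated test on log2(TPM + 1), with Benjamini-Hochberg adjustment over all 21396 genes tested, and every adjusted p below is from this test. At 22 against 16 °C, 5 of 47 members were called higher (4 of 46 with rpl2 taken once), where 26.5% of all genes tested were, and 24 were called lower (51.1%), where 11.7% were. The median log2 difference over members was -0.22, and 0.09 over all genes. At 29 against 22 °C, 8 members were called higher (background 28.8%) and 21 lower (44.7%; background 9.05%), with medians of -0.12 over members and 0.12 over all genes. With libraries scaled to their median ratio the last of these medians was -0.005, and 2 members were higher and 29 lower at 29 against 22 °C. Both steps share the WT libraries at 22 °C. Libraries of the 2 temperatures did not overlap for 37 of 47 members at the first step and 33 at the second, against 54.4% and 48.4% of all genes.

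Among large-subunit genes 18 of 30 were called lower and 0 higher at 22 against 16 °C, and 16 lower and 3 higher at 29 against 22 °C. RPL24A, of a protein at the interface of the subunits, had 556, 581 and 541 TPM at 16 °C, 377, 399 and 389.8 TPM at 22 °C and 259.8, 329 and 267 TPM at 29 °C. Its libraries did not overlap between any of the temperatures, with log2 differences of -0.52 ± 0.073 (SE; adjusted p = 7.18e-06) at the first step and -0.45 ± 0.073 (SE; adjusted p = 3.96e-05) at the second. Its paralog RPL24B, which is known for its part in translating mRNAs with upstream reading frames, fell likewise, by 0.51 ± 0.067 on the log2 scale (adjusted p = 3.82e-06) and by 0.38 ± 0.067 (adjusted p = 0.000111).

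RPL35AD, a gene for a large-subunit protein whose human counterpart is altered in Diamond-Blackfan anaemia, had 556, 555 and 543 TPM at 16 °C, 400.4, 424 and 384 TPM at 22 °C and 268, 306 and 248 TPM at 29 °C. Each temperature lay below the one before with no overlap, by -0.45 ± 0.082 (SE; adjusted p = 0.000156) and -0.56 ± 0.082 (SE; adjusted p = 1.41e-05), and the WT mean at 29 °C was 0.497 of that at 16 °C, the lowest ratio among the 38. RPL29A fell at the second step by 0.47 ± 0.090 on the log2 scale (adjusted p = 0.000254). Its call at the first step (adjusted p = 0.00466) was lost after quantile normalization (adjusted p = 0.217). RPL8A at the first step fell by 0.37 ± 0.063 on the log2 scale (adjusted p = 7.87e-05), with 1237, 1292 and 1279 TPM at 16 °C, 941, 1054 and 951 TPM at 22 °C and 906, 991 and 906 TPM at 29 °C. Its libraries at 22 and 29 °C overlapped.

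RPL6C went the other way. It had 309, 288 and 273 TPM at 16 °C, 295, 295 and 312 TPM at 22 °C and 352, 389 and 343 TPM at 29 °C, with overlap between 16 and 22 °C and none between 22 and 29 °C. The second step was 0.26 ± 0.062 (SE; adjusted p = 0.00194) as deposited, and was no longer called with median-ratio scaling (adjusted p = 0.262). RPL35AC was also called higher at the second step (0.21; adjusted p = 0.0181). That call was lost with median-ratio scaling (adjusted p = 0.621), with quantile normalization (0.0549), without WT library 1 or 3 at 22 °C (0.0596 and 0.0564) and without WT library 2 or 3 at 29 °C (0.0506 and 0.0516).

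Of the 6 P-stalk genes, 5 were called lower at the first step and 4 at the second, with medians of -0.41 and -0.19. RPP0A, a minor P0 gene, fell by 0.66 ± 0.10 on the log2 scale at the first step (adjusted p = 2.83e-05), with 23.9, 25.4 and 23.9 TPM at 16 °C, 13.0, 17.5 and 15.1 TPM at 22 °C and 13.3, 14.5 and 12.5 TPM at 29 °C. The 3 libraries at 16 °C stood above all the others. RPP0B, the main P0 gene, had 876, 897 and 904 TPM at 16 °C, 649, 724 and 654 TPM at 22 °C and 482, 528 and 478 TPM at 29 °C and fell at both steps (-0.40 ± 0.076, adjusted p = 0.000231; -0.44 ± 0.076, adjusted p = 7.7e-05). RPP1B, a P1 gene whose window is shown above, had 491, 490.4 and 490.1 TPM at 16 °C, 336, 375 and 353 TPM at 22 °C and 251, 283 and 248 TPM at 29 °C, without overlap between temperatures. RPSaA of the small subunit fell at the first step, by 0.36 ± 0.067 on the log2 scale (adjusted p = 0.000185).

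Of the 7 members that are not ribosomal proteins, 0 were called lower at either step, 3 were called higher at the first (background 26.5%) and 5 at the second (background 28.8%). In yeast, DRG GTPases bind translating ribosomes together with a partner protein that carries an RWD domain. AT1G51730, annotated as an RWD-domain protein, had 62.0, 60.2 and 62.7 TPM at 16 °C, 81.5, 75.2 and 79.0 TPM at 22 °C and 102, 109 and 104 TPM at 29 °C. No library overlapped between temperatures, and the differences were 0.34 ± 0.053 (SE; adjusted p = 2.36e-05) and 0.41 ± 0.053 (SE; adjusted p = 2.47e-06). DRG1 had 82.7, 78.5 and 83.5 TPM at 16 °C, 103, 99.5 and 104 TPM at 22 °C and 122, 131 and 120.1 TPM at 29 °C, again without overlap, with 0.32 ± 0.043 (SE; adjusted p = 3.97e-06) and 0.28 ± 0.043 (SE; adjusted p = 2.08e-05). With median-ratio scaling the second DRG1 difference was not called (adjusted p = 0.0504). DRG2 had 0.49, 0.35 and 0.85 TPM at 16 °C, 0.25, 0.23 and 0.41 TPM at 22 °C and 2.03, 1.44 and 2.28 TPM at 29 °C, so that its call at the second step (1.16 ± 0.17, SE; adjusted p = 1.62e-05) is of a gene near the filter. AT2G20280, a zinc finger protein of the CCCH class, was called higher at the second step (0.22; adjusted p = 0.00317), and not with median-ratio scaling or quantile normalization (adjusted p = 0.406 and 0.313). Its call at the first step (0.14; adjusted p = 0.0432) was lost with both scalings (0.686 and 0.689), with the total taken without ribosomal protein genes (0.135), without any 1 WT library at 16 °C (0.0902, 0.106 and 0.0729) and without WT library 1 or 3 at 22 °C (0.154 and 0.0742). DRG3, of the same family as DRG1, had 43.7, 45.0 and 44.5 TPM at 16 °C, 48.2, 48.0 and 48.5 TPM at 22 °C and 59.8, 52.9 and 56.6 TPM at 29 °C, without overlap between 22 and 29 °C. Its second step (0.22 ± 0.064, SE; adjusted p = 0.00936) was not called with either scaling (adjusted p = 0.333 and 0.276) or without WT library 1 at 29 °C (0.0601). Plastid rpl2 had 3.45, 2.87 and 2.91 TPM at 16 °C, 6.6, 8.1 and 6.47 TPM at 22 °C and 8.07, 11.9 and 9.17 TPM at 29 °C and was higher at the first step (0.98 ± 0.17, SE; adjusted p = 0.000108).

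**Figure D2:**
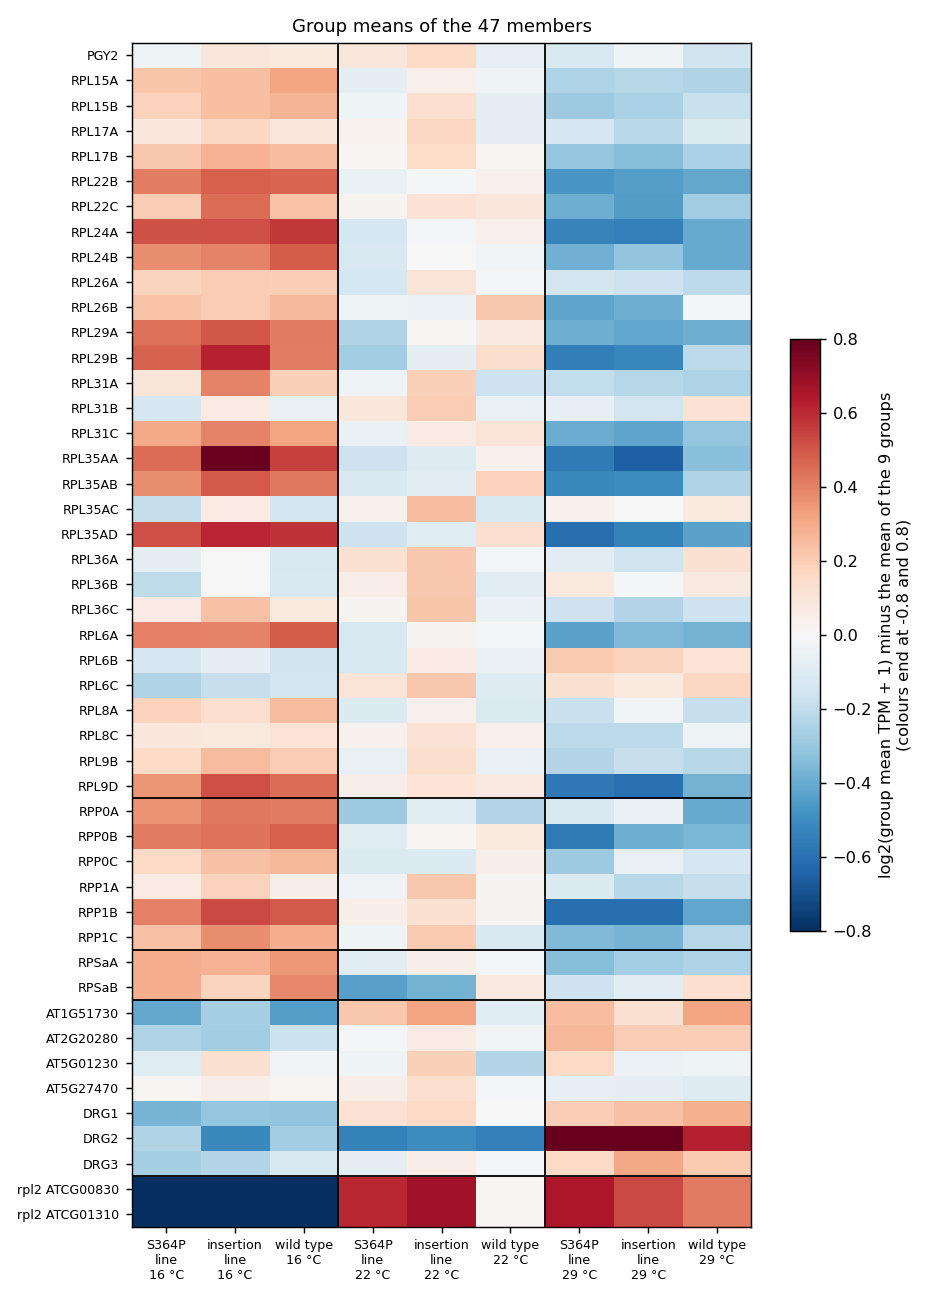
Log2 of the group mean TPM + 1 minus the mean of the 9 groups for each of the 47 members (rows, by role) in the 9 groups (columns), with colours ending at ±0.8. Most rows run from above their mean at 16 °C to below it at 29 °C, while RPL6B, RPL6C, AT1G51730 and DRG1 run the other way.

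Across the 27 libraries, most of the 38 nuclear ribosomal protein genes followed a shared course. RPL6A had the highest correlation with the median of the others (r = 0.98), and the lowest were RPL6B (-0.72), RPL6C (-0.65), RPL36B (-0.29) and RPL35AC (-0.22). These correlations describe 27 libraries that share temperature and scale. RPL6A, RPL6B, RPL36B and RPP1B were singled out after their values were seen.

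Lines were then compared with WT at each temperature, which asks whether an altered ELF3 goes with a different level of these genes. At 16 °C, S364P seedlings had 0 members called higher and 0 lower in limma, with 0 higher and 2 lower at an unadjusted p under 0.05; over all genes 0.71% were called higher and 0.738% lower. The median member difference was -0.06, and -0.01 over all genes. Insertion-labelled seedlings at 16 °C had 4 members called higher (8.51%; background 15.5%) and 0 lower (background 10.7%), with 5 higher and 0 lower at an unadjusted p under 0.05. The 4 were RPL22C, RPL35AC, RPL31A and AT1G51730, with differences of 0.18 to 0.21. Their libraries did not overlap WT, which held for 14 of 47 members and for 41.7% of all genes. Without insertion-labelled library 2, WT library 2 or WT library 3, 0, 1 and 1 members were called, and with median-ratio scaling 0. All 4 calls were lost without insertion-labelled library 2, with adjusted p from 0.0568 to 0.187, and each was also lost without at least 1 WT library.

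At 22 °C, insertion-labelled seedlings differed from WT in more members, most of them higher. In these libraries 18 of 47 members were called higher (38.3%; background 24.6%; 17 of 46 with rpl2 taken once) and 4 lower (8.51%; background 18.4%). With median-ratio scaling 10 were higher and 5 lower. Without insertion-labelled library 1 or 2, 11 were higher, without library 3, whose summed level was 14946 TPM, 22 were, and without insertion-labelled library 3 or WT library 2, 1 was lower. The median was 0.11 over members and 0.02 over all genes. By role, 11 of 30 large-subunit genes were higher and 3 lower, 2 of 6 P-stalk genes were higher, 1 of 2 RPSa genes was lower, 3 of 7 members that are not ribosomal proteins were higher, and so were both rpl2 copies. S364P seedlings at 22 °C had 6 members called higher (12.8%; background 17.3%; 5 of 46 with rpl2 taken once) and 7 lower (14.9%; background 19.9%). Quantile normalization gave 9 higher and 7 lower, and 1 member was higher without S364P library 2. Member and all-gene medians were -0.01 and -0.03. Both lines are set against the same WT libraries, so their differences are not independent of each other. Libraries did not overlap WT for 20 of 47 members in insertion-labelled and 24 in S364P seedlings, against 48.5% and 49.3% of all genes. Lack of overlap is thus common at this temperature.

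Markers of cell types varied with line and temperature as well. The summed TPM of 13 root markers, none of which was at 0 in any library, was 959 to 1424 in S364P, 1094 to 1731 in insertion-labelled and 2354 to 3177 in WT libraries at 22 °C. At 29 °C it was 1289.6 to 1959.9 in S364P, 1919 to 2253 in insertion-labelled and 2279 to 2985 in WT libraries. PYK10, a root and hypocotyl beta-glucosidase, made up most of these sums, at 927 to 2898 TPM over the 27 libraries. Without it the other 12 markers summed to 32.1 to 57.3 TPM in S364P, 48.7 to 69.4 TPM in insertion-labelled and 92.9 to 279 TPM in WT libraries at 22 °C, and to 25.4 to 65.0, 53.3 to 71.2 and 63.8 to 133 TPM at 29 °C. IRT1 ran from 1.83 to 200.1 TPM and CASP1 from 11.6 to 46.8 TPM over the 27 libraries, so this sum too rests largely on few genes. Against WT, 7 of the 13 were called lower in S364P and 2 in insertion-labelled seedlings at 22 °C, 4 and 1 were at 29 °C, and 0 were called higher in either line at either temperature. Over all genes tested, 19.9% in S364P and 18.4% in insertion-labelled seedlings were lower at 22 °C, and 13.7% and 13.5% at 29 °C. Higher were 17.3% and 24.6%, then 24.5% and 24.8%. The insertion-labelled counts of lower markers were thus not above the background share. The median log2 difference over the 13 was -0.60 in S364P and -0.38 in insertion-labelled seedlings at 22 °C, and -0.47 and 0.11 at 29 °C. Of 6 markers of dividing cells, 2 were lower in S364P and 4 in insertion-labelled seedlings at 22 °C (background 19.9% and 18.4%). Their sums there were 137 to 148, 135 to 147 and 166 to 191 TPM in S364P, insertion-labelled and WT libraries. The 3 mesophyll markers were called lower at 29 °C in both lines (background 13.7% in S364P and 13.5% in insertion-labelled). Of the 3 shoot meristem markers 2 were tested, and both were higher than WT at 29 °C in both lines (background 24.5% and 24.8%). The 3 seed markers did not pass the filter. Their sum was 13.25 TPM in S364P library 3 at 29 °C and at most 1.07 TPM in any other library. The part of these markers in the members' differences was not tested.

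Of the large-subunit genes higher at 22 °C, RPL35AC had 284, 302 and 268 TPM in S364P libraries, 362, 329.7 and 302 TPM in insertion-labelled libraries and 248, 265 and 250.5 TPM in WT libraries. The insertion-labelled libraries stood above WT without overlap, at 0.38 ± 0.068 (SE; adjusted p = 0.000104). In S364P the difference was 0.16 ± 0.068 (adjusted p = 0.0661). RPL6C had 337, 368 and 337 TPM in S364P libraries, 390.2, 381 and 353 TPM in insertion-labelled libraries and 295, 295 and 312 TPM in WT libraries. Both lines lay above WT without overlap, at 0.32 ± 0.062 (SE; adjusted p = 0.000264) in insertion-labelled and 0.21 ± 0.062 (SE; adjusted p = 0.0123) in S364P seedlings. The S364P call was lost without S364P library 2 (adjusted p = 0.0739). RPL31A had 185, 194 and 169 TPM in insertion-labelled and 147, 148 and 134 TPM in WT libraries, a difference of 0.35 ± 0.072 (SE; adjusted p = 0.000385). PGY2 was higher in insertion-labelled seedlings as well (0.23 ± 0.054, SE; adjusted p = 0.00164), with 812, 827 and 739 TPM against 661, 718 and 654 TPM in WT.

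Other members were lower than WT at 22 °C. RPL26B, of a protein at the tunnel exit, had 134, 134 and 132 TPM in S364P libraries, 133, 137 and 126 TPM in insertion-labelled libraries and 158, 165 and 153 TPM in WT libraries. Both lines lay below WT without overlap, at -0.25 ± 0.058 (SE; adjusted p = 0.00182) in S364P and -0.26 ± 0.058 (SE; adjusted p = 0.000754) in insertion-labelled seedlings, and both calls held without any 1 library. Its paralog RPL26A, the main copy, had 521, 548 and 528 TPM in S364P libraries, 651, 651 and 591 TPM in insertion-labelled libraries and 566, 615 and 568 TPM in WT libraries. RPL26A was called lower than WT in S364P seedlings (-0.13, adjusted p = 0.0444). That call was lost in 4 of 6 fits that left out a library and with median-ratio scaling (0.17). RPL35AB had 461, 512 and 523 TPM in S364P libraries, 532, 536 and 465 TPM in insertion-labelled libraries and 595, 641 and 609 TPM in WT libraries, both lines below WT without overlap. The differences were -0.30 ± 0.087 (SE; adjusted p = 0.00868) in S364P and -0.27 ± 0.087 (SE; adjusted p = 0.0151) in insertion-labelled seedlings. They were not called without S364P library 1 (adjusted p = 0.0518), and without insertion-labelled library 3 or WT library 2 (0.0876 and 0.0607).

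RPL29 genes were lower in S364P seedlings at 22 °C. RPL29A had 489, 519.6 and 517 TPM in S364P libraries, 644, 644 and 524 TPM in insertion-labelled libraries and 622, 659 and 616 TPM in WT libraries, and S364P lay below WT without overlap at -0.31 ± 0.090 (SE; adjusted p = 0.00886). RPL29B had 143, 164 and 164 TPM in S364P libraries, 198, 199.5 and 147 TPM in insertion-labelled libraries and 208, 229 and 192 TPM in WT libraries, with -0.42 ± 0.11 (SE; adjusted p = 0.005) in S364P seedlings and no overlap with WT there. RPL35AD was also lower in S364P (-0.29 ± 0.082, SE; adjusted p = 0.00818). In insertion-labelled seedlings RPL35AD was called lower as well (-0.23, adjusted p = 0.0294), a call lost in 3 of 6 fits that left out a library. RPSaB, a minor RPSa gene, had 9.61, 10.8 and 8.87 TPM in S364P libraries, 11.8, 10.2 and 8.63 TPM in insertion-labelled libraries and 14.4, 15.8 and 12.8 TPM in WT libraries. It was lower in both lines without overlap, at -0.51 ± 0.14 (SE; adjusted p = 0.00838) in S364P and -0.46 ± 0.14 (SE; adjusted p = 0.0136) in insertion-labelled seedlings. The insertion-labelled call was lost without insertion-labelled library 3 or WT library 2 (adjusted p = 0.0774 and 0.0641).

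AT1G51730 was the member with the smallest adjusted p at 22 °C in both lines. It had 96.4, 102 and 95.1 TPM in S364P libraries, 111, 110.2 and 94.0 TPM in insertion-labelled libraries and 81.5, 75.2 and 79.0 TPM in WT libraries, with 0.32 ± 0.053 (SE; adjusted p = 7.53e-05) in S364P and 0.41 ± 0.053 (SE; adjusted p = 1.49e-06) in insertion-labelled seedlings, and no overlap with WT. AT5G01230, a putative tRNA methyltransferase, had 6.51, 7.59 and 6.17 TPM in S364P libraries, 8.33, 9.01 and 6.93 TPM in insertion-labelled libraries and 5.75, 5.65 and 5.91 TPM in WT libraries and was higher in insertion-labelled seedlings (0.42 ± 0.093, SE; adjusted p = 0.000866). DRG1 was higher there too (0.16 ± 0.043, SE; adjusted p = 0.0045), though not with median-ratio scaling (adjusted p = 0.0549). The serine-tRNA ligase AT5G27470 had 97.9, 92.7 and 91.0 TPM in S364P libraries, 96.6, 104 and 98.2 TPM in insertion-labelled libraries and 90.7, 88.0 and 91.4 TPM in WT libraries and was called in neither line. Plastid rpl2 had 8.82, 13.4 and 11.3 TPM in S364P libraries, 13.4, 12.3 and 9.68 TPM in insertion-labelled libraries and 6.6, 8.1 and 6.47 TPM in WT libraries, with 0.58 ± 0.17 (SE; adjusted p = 0.0107) in S364P and 0.66 ± 0.17 (SE; adjusted p = 0.00334) in insertion-labelled seedlings. The S364P call was lost without S364P library 2 (adjusted p = 0.0731).

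**Figure D3:**
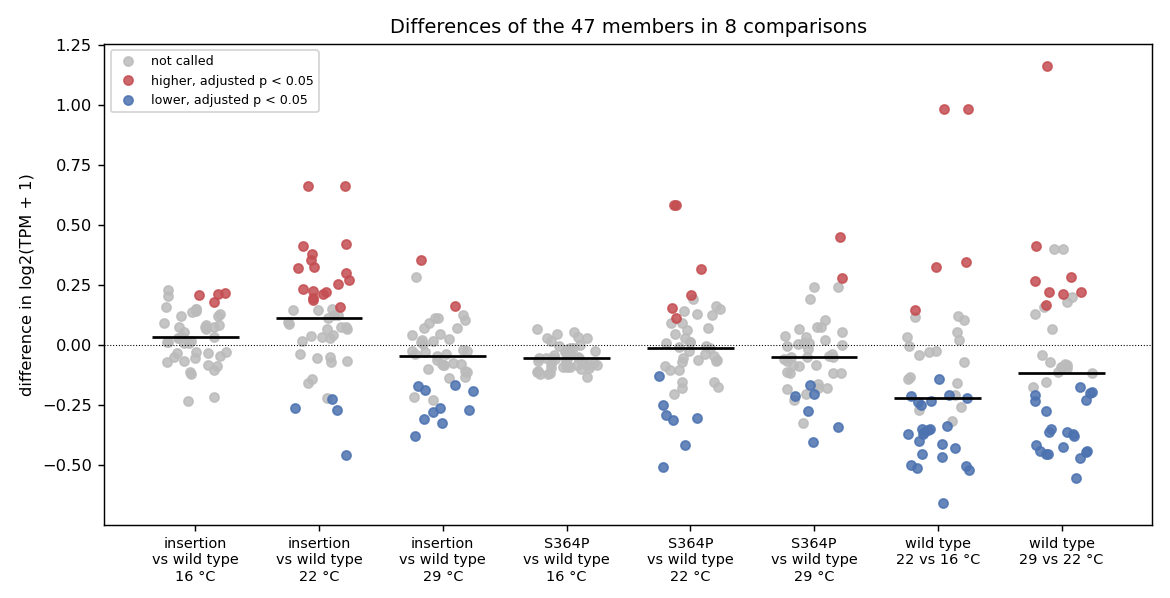
Log2 differences of the 47 members (points; bar, median) in 8 comparisons, on the log2(TPM + 1) scale. The medians lie at -0.22 and -0.12 in the WT steps to 22 and 29 °C and between -0.06 and 0.11 in the comparisons of a line with WT.

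At 29 °C more members were called lower than higher in both lines. Insertion-labelled seedlings had 2 members higher (4.26%; background 24.8%) and 10 lower (21.3%; background 13.5%), and S364P seedlings 2 higher (4.26%; background 24.5%) and 6 lower (12.8%; background 13.7%). With median-ratio scaling it was 0 higher and 16 lower in insertion-labelled and 0 higher and 14 lower in S364P seedlings. Quantile normalization gave 2 higher and 12 lower in S364P. The median was -0.05 over members in both lines, and 0.09 and 0.07 over all genes in insertion-labelled and S364P seedlings. Single libraries weighed on these counts. For insertion-labelled seedlings, 4 were lower without insertion-labelled library 2 or 3 and 2 without WT library 2, and for S364P 1 was lower without S364P library 3 or WT library 2. The higher counts ran from 1 to 4 in insertion-labelled and from 0 to 2 in S364P seedlings when any 1 library was left out. Libraries did not overlap WT for 12 of 47 members in insertion-labelled and 15 in S364P seedlings, against 47.8% and 44.6% of all genes.

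RPL26B was again the clearest. It had 104, 107 and 94.7 TPM in S364P libraries, 114, 101 and 97.0 TPM in insertion-labelled libraries and 127, 145 and 134 TPM in WT libraries, both lines below WT without overlap, at -0.41 ± 0.058 (SE; adjusted p = 7.43e-06) in S364P and -0.38 ± 0.058 (SE; adjusted p = 1.6e-05) in insertion-labelled seedlings. At 16 °C its values had been 164, 161 and 155 TPM in S364P libraries, 153, 163 and 156 TPM in insertion-labelled libraries and 167, 161 and 163 TPM in WT libraries, with -0.03 ± 0.058 (adjusted p = 0.981) in S364P and -0.06 ± 0.058 (adjusted p = 0.521) in insertion-labelled seedlings. RPP0A was higher than WT at 29 °C, with 15.4, 18.6 and 15.7 TPM in S364P libraries, 17.2, 16.9 and 18.1 TPM in insertion-labelled libraries and 13.3, 14.5 and 12.5 TPM in WT libraries. The difference was 0.28 ± 0.10 (SE; adjusted p = 0.0371) in S364P and 0.35 ± 0.10 (SE; adjusted p = 0.00941) in insertion-labelled seedlings. Neither was called with median-ratio scaling (adjusted p = 0.18 and 0.116) or quantile normalization (0.241 and 0.0917), and the S364P call was also lost without S364P library 2 (0.19), WT library 1 (0.0821) or WT library 3 (0.135).

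RPL29B had 134, 138 and 117 TPM in S364P libraries, 141, 118 and 138 TPM in insertion-labelled libraries and 159, 187 and 148 TPM in WT libraries and was called lower in both lines (-0.34 in S364P, adjusted p = 0.0173; -0.31 in insertion-labelled, adjusted p = 0.0292). Both calls were lost without WT library 2 (0.108 and 0.168), the first without S364P library 3 (0.0888) and the second without insertion-labelled library 2 (0.142). RPL35AA had 41.7, 34.4 and 35.1 TPM in insertion-labelled and 45.1, 50.8 and 44.0 TPM in WT libraries (-0.33; adjusted p = 0.0138). That call was lost without insertion-labelled library 2 or 3 (0.0629 and 0.0583) or WT library 2 (0.0765). RPL31B had 358, 352 and 361 TPM in S364P libraries, 332, 355 and 321 TPM in insertion-labelled libraries and 382, 427 and 409 TPM in WT libraries. Its insertion-labelled difference was -0.27 ± 0.087 (SE; adjusted p = 0.0168), and the call was lost without insertion-labelled library 3 or WT library 2 (0.0689 and 0.0717). RPL36A had 143, 136 and 129 TPM in insertion-labelled and 153, 183 and 161 TPM in WT libraries, without overlap, and was lower in insertion-labelled seedlings (-0.28 ± 0.077, SE; adjusted p = 0.006). That call was lost without WT library 2 (0.0536). RPL36A was also called lower in S364P seedlings (-0.21, adjusted p = 0.0338), a call lost in 4 of 6 fits that left out a library. AT1G51730, higher than WT at 22 °C, was lower at 29 °C in insertion-labelled seedlings. It had 101, 99.1 and 99.3 TPM in S364P libraries, 92.1, 91.0 and 91.4 TPM in insertion-labelled libraries and 102, 109 and 104 TPM in WT libraries, with -0.19 ± 0.053 (SE; adjusted p = 0.00594) and no overlap. In S364P the difference was -0.07 ± 0.053 (adjusted p = 0.326). DRG2 had 3.02, 3.5 and 2.41 TPM in S364P libraries, 3.5, 1.62 and 2.69 TPM in insertion-labelled libraries and 2.03, 1.44 and 2.28 TPM in WT libraries, each S364P library above WT. Its S364P call (0.45; adjusted p = 0.0459) was lost without S364P library 1 or 2 (0.0934 and 0.178) or WT library 1 or 2 (0.068 and 0.196).

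**Figure D4:**
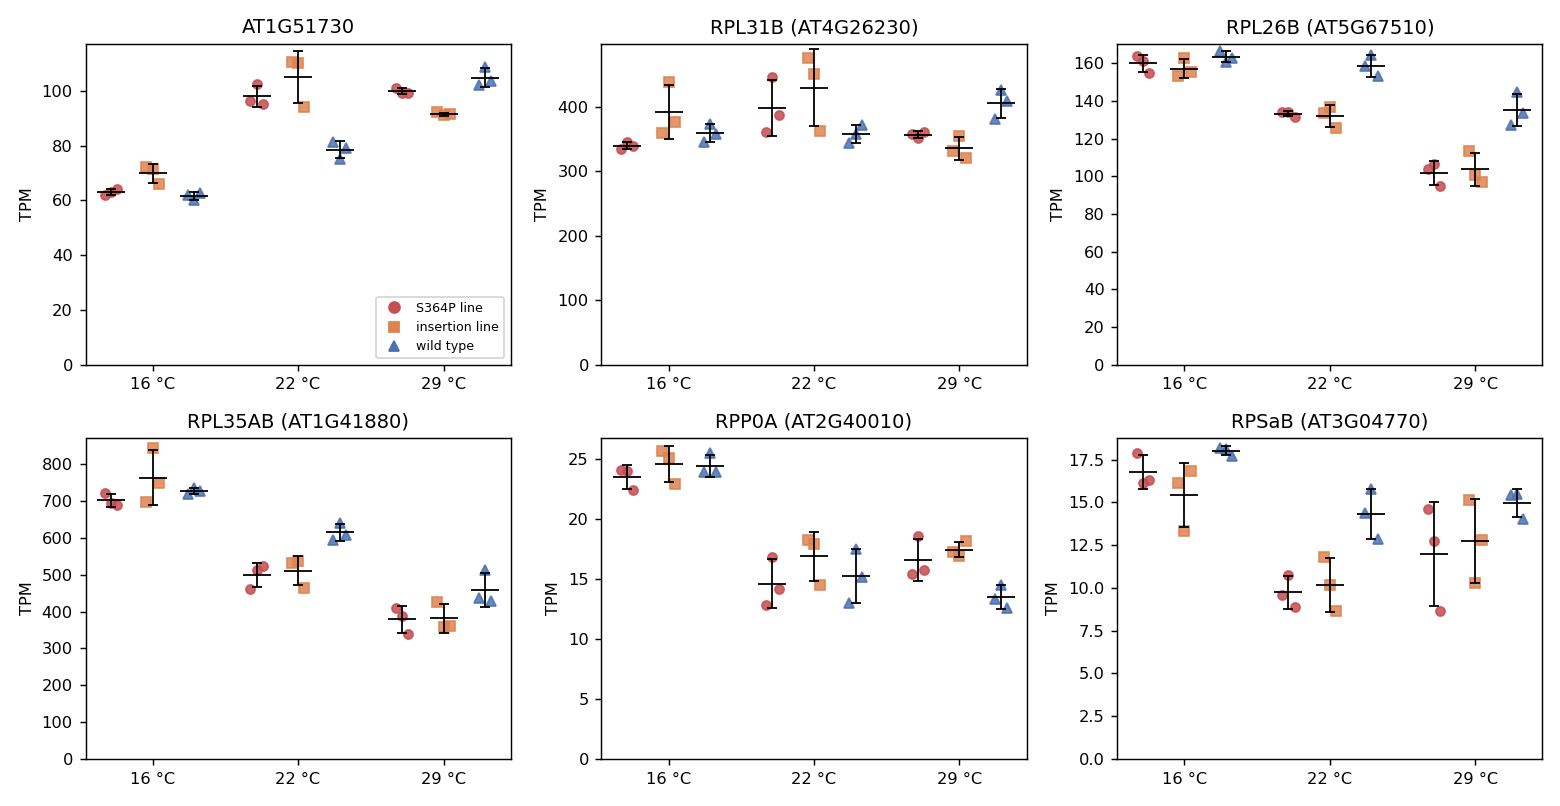
TPM by library (points) with mean ± SD (n = 3) for AT1G51730, RPL31B, RPL26B, RPL35AB, RPP0A and RPSaB in S364P, insertion-labelled and WT groups at 16, 22 and 29 °C. RPL26B lies below WT in both lines at 22 and 29 °C, and AT1G51730 above WT in both lines at 22 °C.

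Set against each other, the 2 ELF3 lines differed in few members, and the share called lower in S364P was below or near that of all genes at 16 and 22 °C. At 16 °C 0 members were called higher (background 7%) and 4 lower (8.51%; background 12.2%). At 22 °C 0 were higher (background 6.18%) and 5 lower (10.6%; background 9.45%), and at 29 °C 0 were higher (background 0.659%) and 0 lower (background 0.341%). The median difference was -0.08, -0.11 and 0.02 over members at 16, 22 and 29 °C, and -0.04, -0.06 and -0.006 over all genes. In limma, an unadjusted p under 0.05 was reached by 0 higher and 9 lower members at 16 °C, by 0 and 14 at 22 °C and by 2 and 4 at 29 °C. RPL26A at 22 °C, with the values given above, was -0.24 ± 0.050 (SE; adjusted p = 0.00182) in S364P against insertion-labelled seedlings, without overlap. The 2 lines did not overlap there for 7 of 47 members, against 28.4% of all genes. RPL31A at 16 °C had 175, 173 and 166 TPM in S364P and 194, 224 and 216 TPM in insertion-labelled libraries (-0.30 ± 0.072, SE; adjusted p = 0.00422), and was not called with median-ratio scaling (adjusted p = 0.058). RPL35AA at 16 °C (-0.33; adjusted p = 0.0239) was lost with median-ratio scaling (0.0724), without S364P library 1 or 2 (0.0728 and 0.078) and without insertion-labelled library 2 (0.179). RPP1A at 22 °C (-0.24; adjusted p = 0.0305) was lost with median-ratio scaling and quantile normalization (0.157 and 0.109) and in 4 of 6 fits that left out a library. The count at 22 °C turned on the third insertion-labelled library, whose summed level was low: 17 were lower without it, and 1, 2, 1 and 1 without S364P library 1, S364P library 3, insertion-labelled library 1 and insertion-labelled library 2. At 16 °C, 2 were lower without S364P library 1 and 1 without insertion-labelled library 2. At 29 °C, 1 was lower without S364P library 1. With median-ratio scaling 0 were lower at 16 °C and 1 at 22 °C.

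The change of the difference from WT between neighbouring temperatures was tested as an interaction, which shares the 22 °C libraries between steps and the WT libraries between lines. For insertion-labelled seedlings, 1 member had a higher difference at 22 than at 16 °C (background 5.47%) and 0 a lower one (background 4.35%), with 11 and 5 at an unadjusted p under 0.05. The higher count was 6 without insertion-labelled library 3 at 22 °C, 3 without WT library 2 at 22 °C, and 2 without insertion-labelled library 1 or 3 at 16 °C or WT library 1 at 22 °C. From 22 to 29 °C, 0 members had a higher difference (background 8.72%) and 12 a lower one (25.5%; background 9.13%), with 1 and 19 at an unadjusted p under 0.05. Without insertion-labelled library 1 or 2 at 22 °C, or without WT library 2 at 29 °C, 7 had a lower one. For S364P seedlings, 3 members had a higher (background 7.81%) and 1 a lower difference (background 6.27%) at 22 than at 16 °C, with 8 and 3 at an unadjusted p under 0.05. The higher count was 5 and 1 without S364P library 1 and 3 at 16 °C, 1 without WT library 1 at 16 °C, and 6 and 1 without S364P library 1 and 2 at 22 °C. The 1 lower, RPL29B, was lost in 9 of the 12 fits that left out a library, with adjusted p up to 0.103. From 22 to 29 °C it was 0 higher (background 10.5%) and 3 lower (background 6.94%), with 3 and 6 at an unadjusted p under 0.05. Of the higher, 1 or 2 were called when S364P library 2 or WT library 1 at 22 °C, or S364P library 3 or WT library 2 at 29 °C, was left out. Of the lower, 1 was called without S364P library 2 at 22 °C, without S364P library 3 at 29 °C or without WT library 2 at 29 °C.

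AT1G51730 had the most negative interaction from 22 to 29 °C among called members in both lines, -0.38 ± 0.075 (SE; adjusted p = 0.00106) in S364P and -0.60 ± 0.075 (SE; adjusted p = 1.28e-05) in insertion-labelled seedlings, and both held without any 1 library. From 16 to 22 °C its S364P interaction was 0.28 ± 0.075 (SE; adjusted p = 0.0139), and the insertion-labelled one was 0.23 ± 0.075 (adjusted p = 0.0518). Its 16 °C values were 62.0, 63.0 and 64.1 TPM in S364P libraries, 72.1, 71.5 and 65.9 TPM in insertion-labelled libraries and 62.0, 60.2 and 62.7 TPM in WT libraries. RPL31B, with 361, 447 and 387 TPM in S364P libraries, 476, 452 and 363 TPM in insertion-labelled libraries and 344, 359 and 372 TPM in WT libraries at 22 °C and the values above at 29 °C, had -0.53 ± 0.12 (SE; adjusted p = 0.005) in insertion-labelled seedlings. RPL36A (-0.50 ± 0.11, SE; adjusted p = 0.00283), RPL35AC (-0.45 ± 0.10, SE; adjusted p = 0.00234) and RPL6C (-0.40 ± 0.088, SE; adjusted p = 0.00299) moved the same way there, and each held without any 1 library. RPL6C was also the 1 member called from 16 to 22 °C in insertion-labelled seedlings, at 0.35 ± 0.088 (SE; adjusted p = 0.0135), which was not called with median-ratio scaling or quantile normalization (adjusted p = 0.0512 and 0.0615).

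Copies of a family did not always move together. Of the 15 families, the copy with the highest level in WT changed between 16 and 29 °C in 3: RPL6 (RPL6A to RPL6C), RPL36 (RPL36C to RPL36B) and RPP1 (RPP1C to RPP1A). Shares of a family's summed TPM do not depend on the scaling of a library. In WT, RPL6A made up 51.2 ± 0.238% of the RPL6 sum at 16 °C, 41.3 ± 1.06% at 22 °C and 31.9 ± 1.41% at 29 °C. Over the same temperatures RPL6C made up 28.2 ± 1.33%, 33.4 ± 1.30% and 39.9 ± 0.390%. At 22 °C the RPL6C share was 38.1 ± 0.952% in S364P, 37.3 ± 0.932% in insertion-labelled and 33.4 ± 1.30% in WT libraries. At 29 °C it was 38.8 ± 1.32%, 37.7 ± 1.47% and 39.9 ± 0.390% in the same order.

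RPL35AC made up 15.5 ± 0.120% of the RPL35A sum in WT at 16 °C, 19.1 ± 0.0992% at 22 °C and 27.5 ± 1.89% at 29 °C. At 22 °C it was 24.5 ± 1.52% in S364P and 26.7 ± 1.06% in insertion-labelled libraries, and the SDs of the lines left a gap to WT. RPL35AD made up 28.2 ± 0.595% in S364P, 27.7 ± 0.373% in insertion-labelled and 30.2 ± 0.704% in WT libraries at 22 °C. The RPL31B share rose by 11.2 points and that of RPL31C fell by 10.6 points in WT between 16 and 29 °C. Members of 1 family were called in opposite directions in RPL35A (insertion-labelled against WT at 22 °C), RPL8 (insertion-labelled against WT at 29 °C), RPP0 (S364P against WT at 29 °C), and RPL6 and RPL35A (WT, 29 against 22 °C). RPL8A (0.16; adjusted p = 0.048) and RPL8C (-0.17; 0.0412) lost their calls in 4 and 5 of 6 fits that left out a library. RPL8A was not called with median-ratio scaling (0.617). RPP0B (-0.21; 0.0366) was lost in 3 of 6 such fits. With median-ratio scaling, RPP0A in S364P and RPL6C and RPL35AC in the WT step were not called either, as given above. No source used here says how reads shared by near-identical copies were assigned, so the split within a family is uncertain.

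**Figure D5:**
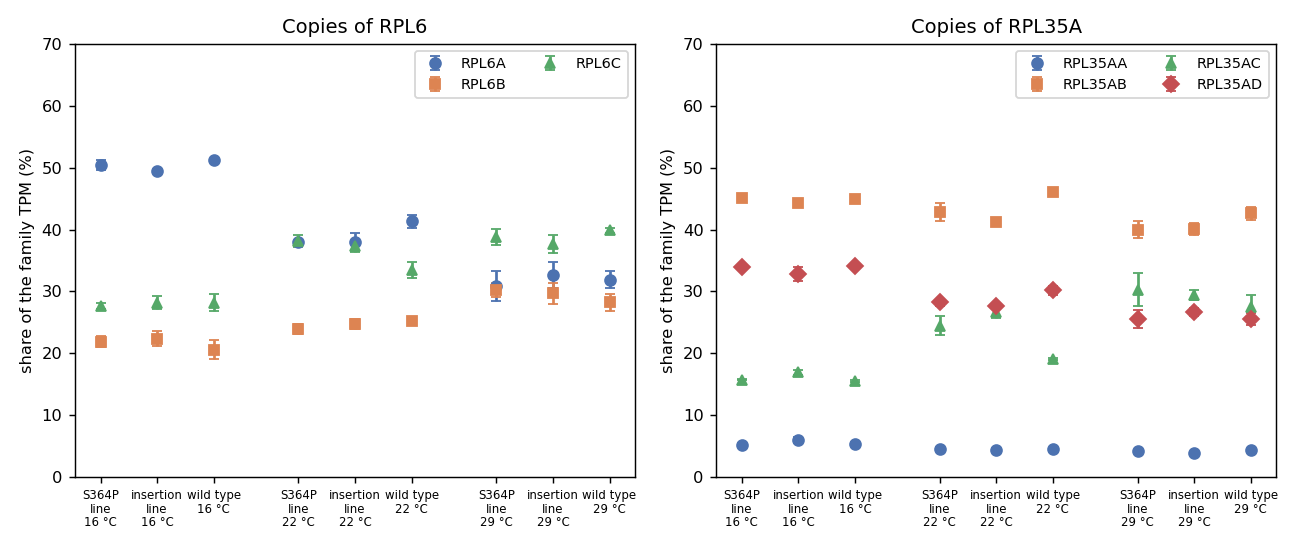
Share of the summed family TPM held by each RPL6 copy and each RPL35A copy, in percent (mean ± SD, n = 3), at 16, 22 and 29 °C in S364P, insertion-labelled and WT libraries. The RPL6A share in WT is 51.2% at 16 °C and 31.9% at 29 °C, and that of RPL6C is 28.2% and 39.9%.

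Split by site II, the WT step to 22 °C gave medians of -0.23 over the 31 nuclear ribosomal protein genes with site II (19 lower, 0 higher) and -0.37 over the 7 without (5 lower, 0 higher). At the step to 29 °C it was 16 lower and 2 higher of 31, with a median of -0.18, and 5 lower and 1 higher of 7, with a median of -0.45. Over all genes tested, 11.7% were lower and 26.5% higher at the first step, and 9.05% and 28.8% at the second. With the telo box 4 of 6 were lower at each step, and without it 20 and 17 of 32. In insertion-labelled against WT seedlings at 22 °C, 12 of 31 with site II were higher and 2 lower, against 1 higher and 2 lower of the 7 without (background 24.6% higher and 18.4% lower). The same split was made for S364P at 22 °C and for both lines at 29 °C, and not for either line at 16 °C. S364P at 22 °C had 1 higher and 5 lower of 31, against 1 higher and 2 lower of 7 (background 17.3% and 19.9%). At 29 °C insertion-labelled seedlings had 2 higher and 9 lower of 31 (background 24.8% and 13.5%). S364P seedlings had 1 higher and 6 lower of 31 (background 24.5% and 13.7%). None of the 7 was called in either line there. These are counts of genes that share libraries and families.

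The other 202 genes tested that carry a cytosolic ribosome subunit term moved in the same direction as the members in WT, with 11 higher (5.45%) and 115 lower (56.9%) for 22 against 16 °C (median -0.22) and 12 with 91 for 29 against 22 °C (median -0.17). In insertion-labelled against WT seedlings 59 were higher (29.2%; background 24.6%) with 15 lower (7.43%; background 18.4%) at 22 °C (median 0.09), and 13 (6.44%; background 24.8%) with 14 (6.93%; background 13.5%) at 29 °C (median -0.01). In S364P against WT seedlings it was 20 higher (9.9%; background 17.3%) with 31 lower (15.3%; background 19.9%) at 22 °C, and 9 (4.46%; background 24.5%) with 17 (8.42%; background 13.7%) at 29 °C. Of 100 other ribosome biogenesis genes, 9 were higher with 45 lower in WT for 22 against 16 °C, and 19 with 13 for 29 against 22 °C. Of 179 other rRNA processing genes it was 15 higher and 72 lower, then 33 higher and 22 lower. Initiation factors (94 genes) had 19 higher and 18 lower, then 32 higher and 14 lower, elongation genes (62) had 16 and 14, then 15 and 12, and termination genes (13) had 4 and 2, then 6 and 2. For all counts in WT the background is 26.5% higher and 11.7% lower at the first step, and 28.8% and 9.05% at the second.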

How the data were processed

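The deposited table holds TPM per gene and library, computed by the authors, with gene names, Gene Ontology terms and gene lengths in bases, and the authors' mean TPM per group, which was not used. Per the labels, mRNA libraries were sequenced on an Illumina NovaSeq; no source used here names the aligner, quantifier or genome build. Of 32547 genes with a TAIR10.1 transcript in RefSeq, 32373 (99.5%) have a table length equal to a transcript of it, and sequences and coordinates printed here are from TAIR10.1, matched by locus tag (45 of 45 nuclear members). Library sums were 999986.0 to 999993.4 TPM. One table line without values was left out.

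Members were the genes annotated with cytoplasmic translation at 1 TPM or more in at least 3 libraries. The members and the gene lists were chosen with earlier results of these data known. Differences were fitted with limma 3.58.1 (R 4.3.3, trend) on log2(TPM + 1), as 1 mean per group over 27 libraries and 21396 genes, in 15 comparisons with 18 residual degrees of freedom. A pseudocount of 1 understates changes of low genes. The fit was tested on simulated data. Levels, shares and motifs were computed with Python 3.11.15 and pandas 2.3.3, and figures drawn with matplotlib 3.10.9. The insertion-labelled columns at 16 °C numbered 2 and 3 could be tied to the group but not to a single sample.

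Named members were the 10 with the highest mean TPM, the 3 most changed called members each way per line and temperature with at least 5 TPM (2 each way in other comparisons), the most changed copies of families called both ways, and every member that is not a ribosomal protein. Not every named member is described in each comparison that named it. Alternatives were pseudocounts of 0.1 and 5, a filter of 5 TPM and none, median-of-ratios scaling, quantile normalization, a fit of the compared groups alone, a replicate block, each library left out, and, added after seeing the data, TPM rescaled to the total without 520 ribosomal genes.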

Additional observations from a re-analysis of the deposited data

Results flagged for a closer look

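The difference between a line and WT itself differed between temperatures for these members in the named set, by the interaction term of the limma fit (adjusted p under 0.05 over all 21396 genes tested). Values are changes of the log2 difference from WT.

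For AT1G51730, the RWD-domain protein, the S364P difference was higher by 0.28 at 22 than at 16 °C and then fell by 0.38 from 22 to 29 °C, and the insertion-labelled difference fell by 0.60 from 22 to 29 °C. For RPL6C it was higher by 0.29 in S364P and by 0.35 in insertion-labelled seedlings at 22 than at 16 °C, and fell by 0.40 from 22 to 29 °C in insertion-labelled seedlings. From 22 to 29 °C the insertion-labelled change was also negative for RPL31B (-0.53), RPL36A (-0.50), RPL35AC (-0.45), the tRNA methyltransferase gene AT5G01230 (-0.44), RPL31A (-0.33), RPL15B (-0.30) and DRG1 (-0.21). Over the same step it was -0.34 for RPL36A and -0.20 for DRG1 in S364P seedlings. From 16 to 22 °C the S364P change was 0.27 for PGY2 and -0.48 for RPL29B.

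The calls for AT1G51730, for RPL31B, RPL36A, RPL35AC and RPL6C in insertion-labelled seedlings held without any 1 library, and each of the others was lost without at least 1. The call nearest the threshold was RPL15B, lost in 9 of 12 fits that left out a library.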

How the results depend on the processing

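Counts of members called moved by more than 1.5 times as follows. With median-of-ratios scaling, counts against WT became 0 higher (4 as deposited) for insertion-labelled seedlings at 16 °C, 10 higher (18) at 22 °C, and 0 higher (2) with 16 lower (10) at 29 °C; for S364P at 29 °C they became 0 higher (2) with 14 lower (6). S364P against insertion-labelled seedlings became 0 lower (4) at 16 °C and 1 lower (5) at 22 °C, WT at 29 against 22 °C 2 higher (8), and the interactions from 16 to 22 °C 0 higher (1) for insertion-labelled and 1 higher (3) for S364P seedlings. Quantile normalization gave 12 lower for S364P against WT at 29 °C, 1 lower (5) at 22 °C and 1 lower (0) at 29 °C for S364P against insertion-labelled, 5 higher (8) for WT at 29 against 22 °C, 0 higher (1) for the insertion-labelled interaction from 16 to 22 °C, and 1 higher (0) and 7 lower (3) for the S364P interaction from 22 to 29 °C. Fitting the compared groups alone gave 1, 9 and 1 higher for insertion-labelled against WT at 16, 22 and 29 °C and 5 lower at 29 °C, 0 higher and 2 lower for S364P at 29 °C, 1 and 0 lower for S364P against insertion-labelled at 16 and 22 °C, and, for interactions, 7 lower for insertion-labelled from 22 to 29 °C, 7 higher and 6 lower (1) for S364P from 16 to 22 °C and 1 lower from 22 to 29 °C; that fit has fewer residual degrees of freedom. A filter of 5 TPM gave 1 higher for S364P at 29 °C, and 3 and 5 higher for the insertion-labelled and S364P interactions from 16 to 22 °C. With no filter, 1 member was higher for insertion-labelled at 29 °C and 0 lower for the S364P interaction from 16 to 22 °C. A pseudocount of 0.1 gave 1 higher for S364P at 29 °C, and one of 5 gave 2 higher for the insertion-labelled interaction from 16 to 22 °C. Rescaling without ribosomal genes gave 1 higher for insertion-labelled at 29 °C and 0 lower for the S364P interaction from 16 to 22 °C. PGY2 in WT at 22 against 16 °C was -0.14 as deposited and 0.0586 after quantile normalization (adjusted p = 0.321). Where no construction is named, the cause was not tested.

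Leaving out 1 library gave, for insertion-labelled against WT, 0 to 4 higher at 16 °C, 11 to 22 higher with 1 to 5 lower at 22 °C, and 1 to 4 with 2 to 11 at 29 °C. For S364P against WT it gave 1 to 6 higher with 5 to 8 lower at 22 °C, and 0 to 2 with 1 to 8 at 29 °C. S364P against insertion-labelled had 1 to 6, 1 to 17 and 0 to 1 lower at 16, 22 and 29 °C, and WT steps 4 to 5 higher and 19 to 25 lower, then 6 to 8 and 16 to 22. Interactions had 1 to 6 higher and 0 to 1 lower, then 7 to 16 lower, for insertion-labelled seedlings, and 1 to 6 higher and 0 to 1 lower, then 0 to 2 higher and 1 to 4 lower, for S364P.

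Equal replicate numbers did not pair the libraries: 84 pairs of the same number correlated at -0.27 to 0.26, 13 of them over 0.1, and 8 of 24 libraries correlated best with their own number. With the replicate number as a block, 1 member was higher and 10 lower for S364P against WT at 29 °C, and the S364P interactions had 5 higher from 16 to 22 °C and 5 lower from 22 to 29 °C. For comparisons with insertion-labelled seedlings at 16 °C, no paired analysis was possible because 2 of their columns carry no sample's number. TPM keeps no depth, so limits set by depth are unknown.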

Other observations

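TOR kinase, through the S6 kinases, is known to raise synthesis of ribosomal proteins, and its 5 listed genes were all tested. S6K1 (AT3G08730, named PK1 in the table) was lower than WT in both lines at all 3 temperatures. In S364P seedlings its log2 difference was -0.25 (adjusted p = 0.0166), -0.31 (0.000129) and -0.47 (6.48e-07) at 16, 22 and 29 °C, and in insertion-labelled seedlings it was -1.17 (4.27e-13), -0.78 (1.53e-10) and -0.56 (3.45e-08), all from limma. Its neighbour S6K2 (AT3G08720) was higher at 29 °C, at 0.45 (adjusted p = 0.00318) in S364P and 0.40 (0.00762) in insertion-labelled seedlings. LST8-1 was higher in S364P seedlings at 22 °C (0.16; adjusted p = 0.0298) and 29 °C (0.26; 0.000904) and in insertion-labelled seedlings at 22 °C (0.24; 0.00115). TOR and RAPTOR1 were higher in insertion-labelled seedlings at 29 °C, at 0.41 (0.0159) and 0.31 (0.0104), and TOR in S364P seedlings at 0.33 (0.04996).

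Genes of plastid translation were mostly lower in the ELF3 lines at 29 °C. Of 24 tested, 16 were lower and 0 higher than WT in S364P (median -0.41), and 17 were lower and 0 higher in insertion-labelled seedlings (median -0.49). The chloroplast and mitochondrial ribosomal lists pair a ribosome annotation with one for the chloroplast or the mitochondrion. Other cytosolic ribosome genes were not taken out of them, so the lists can overlap. Of 99 chloroplast ribosomal genes, 43 were lower and 7 higher in S364P and 44 lower and 7 higher in insertion-labelled seedlings. Of 80 mitochondrial ribosomal genes, 16 were lower and 8 higher in S364P and 13 lower and 6 higher in insertion-labelled seedlings. Over all genes tested, 13.7% were lower and 24.5% higher in S364P seedlings, and 13.5% lower and 24.8% higher in insertion-labelled seedlings. The 3 mesophyll markers, summed to between 22467 and 57325 TPM over all libraries, were also lower in both lines at 29 °C, and their part in these counts was not tested.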
